A study of Mus musculus with 11 samples.

Results

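Chemokines are small secreted proteins that steer the movement of leukocytes and progenitor cells, and their receptors are proteins of the cell membrane that, in most cases, signal through G proteins. A further group, the atypical receptors (Ackr genes), binds chemokines without G protein signalling and mainly takes them up and removes them. In adipose tissue, chemokines are best known for drawing monocytes, eosinophils and lymphocytes into the stroma, where macrophages accumulate in obesity.

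The genes described here are all rows of the count table whose Ensembl identifier carries a protein-coding symbol of the form Ccl, Cxcl, Cx3cl, Xcl, Ccr, Cxcr, Cx3cr or Ackr followed by a number. The rule selected 45 of 23507 gene rows, which stand for 41 symbols, with 31 rows of ligands and 14 rows of receptors. Of the 60 symbols that the rule finds in the annotation, 19 (among them Ccl5, Ccl17, Ccl22, Ccr3, Ccr4, Cxcr1, Cxcr5, Cxcr6 and Xcl1) had no row in the count table. Another 5 of the 45 rows lie on unplaced scaffolds and are near-identical copies of Ccl19, Ccl21 and Ccl27 genes, so the division of reads among these copies is uncertain. The rule used names only, and no measured value.

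The data are Smart-seq2 single-cell RNA-seq profiles of 3261 cells from perigonadal white fat (pgWAT), taken from its stromal vascular fraction, the part of the pad that remains when adipocytes are taken away. All mice were adult, carried the reporter transgene Tg(Pdgfrb-eGFP), in which Pdgfrb regulatory sequence drives GFP, and were on the C57BL6/J background, with no treatment named. Cells were sorted on 11 plates by GFP (PDGFRB) and by CD31 or DPP4 staining after removal of CD45-positive cells, and came from 3 male mouse ids (mice 1, 4 and 8; 1177 cells) and 4 female mouse ids (mice 2, 3, 5 and 6/7; 2084 cells), of which mouse 6/7 pools 2 animals. A cell had 149931 to 3548334 reads, spike-ins included, with a median of 629323.

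Clusters were made without the chemokine genes and were named from fixed markers. They gave 2248 adipose stem cell (ASC)-like cells (Pdgfra, Col1a1, Dcn, Lum), 557 blood endothelial cell (EC)-like cells, 101 mural-like cells (60 pericyte-like and 41 vascular smooth muscle cell (VSMC)-like) and 137 macrophage-like cells. A further 22 cells were lymphatic EC (LEC)-like and 196 stayed unnamed. Macrophage-like cells were present in spite of the CD45 gate. Their 7 markers summed to 5321 to 10190 counts per 1000000 gene reads (CPM), against at most 58.5 CPM in any other class of the 4. The mouse is the replicate throughout: reads were summed per mouse and class where a mouse had at least 10 cells of it, which gave 7 mice for ASC-like cells, 5 for EC-like cells (mice 1, 2, 5, 6/7 and 8), 2 for mural-like cells (mice 1 and 2) and 2 for macrophage-like cells (mice 1 and 5). In mice 5 and 8 the ASC-like and EC-like cells came from the same plate, and in mice 1, 2 and 6/7 mostly from different sorts.

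Among the ligands, 18 reached a mean of 10 CPM in at least 1 of the 4 classes. Of these, 4 were highest in ASC-like cells (Ccl11, Cxcl1, Cxcl16, Cxcl14), 2 in EC-like cells (Cxcl12, Cxcl9), 1 in mural-like cells (Cx3cl1) and 11 in macrophage-like cells (Ccl6, Ccl9, Ccl7, Cxcl2, Ccl8, Ccl2, Ccl24, Ccl3, Ccl12, Ccl4, Cxcl10). Among the receptors, 6 reached that level, among them Ackr3 and Ackr2 in ASC-like cells and Cx3cr1, Ccr2 and Ccr1 in macrophage-like cells. The other 13 ligand rows had a highest class mean of 0.219 to 8.15 CPM. Cxcl13 (8.15), Ccl19 (6.49), Ccl27a (2.82) and Cxcl5 (0.254) had their highest mean in ASC-like cells. The highest mean of Ccl21a (5.68) and Ccl21b (1.17) was in macrophage-like cells through mouse 1. Within a mouse, however, Ccl21a was higher in EC-like cells (15.7 against 11.2 CPM in mouse 1, 1.75 against 0.168 CPM in mouse 5). Ccl25 (1.65) was highest in EC-like cells and Ccl28 (0.509) in mural-like cells. The rest were the 5 scaffold copies (0.219 to 1.54). The other 8 receptors were Cxcr3 (9.66) and Cxcr4 (3.37), highest in macrophage-like cells, Ackr4 (3.48), highest in ASC-like cells, and Ackr1 (5.75), Ccr10 (2.62), Ccr7 (2.18), Ccr9 (1.39) and Cxcr2 (1.15), with their highest mean in mural-like cells. Each of these 5 mural-like means rested on few cells: all 86 reads of Ccr10 and all 220 of Ccr7 came from 1 cell each, Ccr7 in mouse 1 was lower in mural-like (4.36 CPM) than in EC-like cells (4.71 CPM), and Ackr1, Ccr9 and Cxcr2 were above the other classes of the same mouse only in mouse 2. CPM orders a gene across classes, but not genes against each other, because longer transcripts yield more reads.

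**Figure D1:**
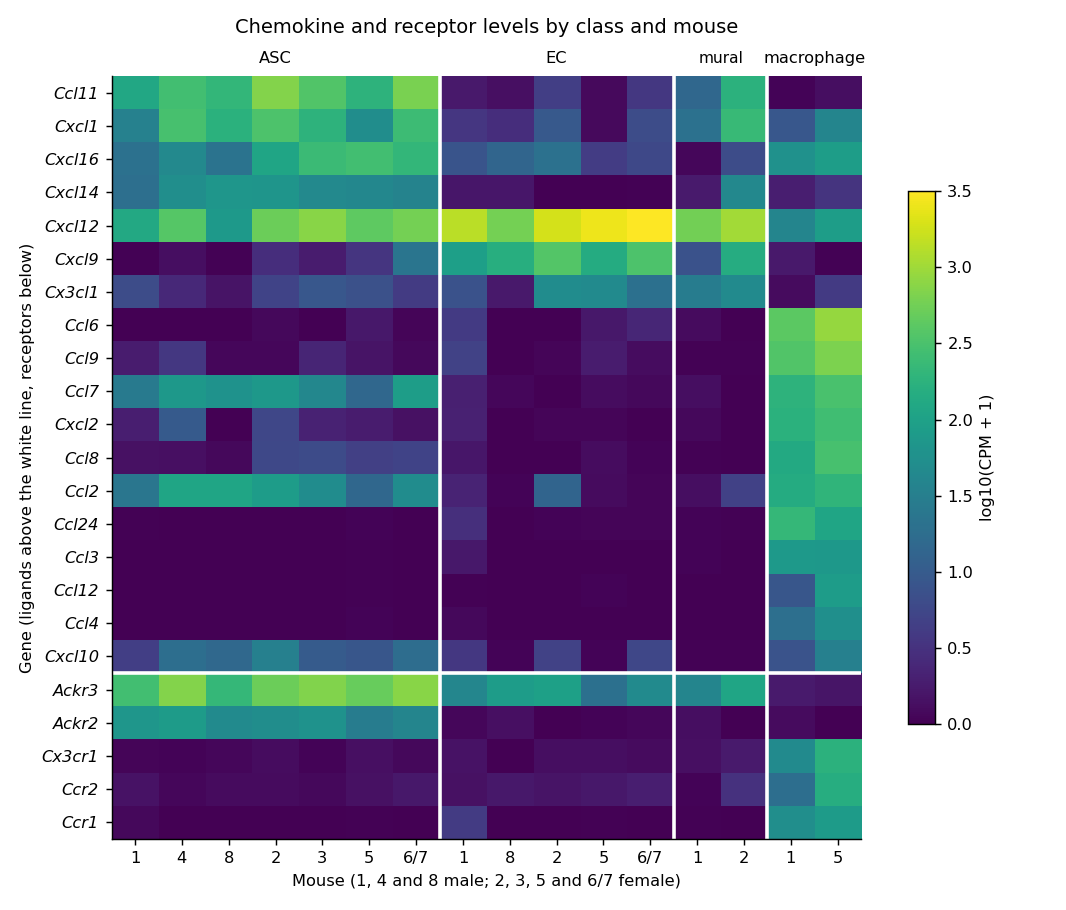
Heat map of log10(CPM + 1) for the 18 ligands (above the horizontal white line) and 5 of the receptors (below it) that reached 10 CPM in a class, with 1 column per mouse and class. Ackr3 and Ackr2 are bright across the 7 ASC columns, and Cxcl12 and Cxcl9 across the 5 EC columns. The Ccl6 to Ccl4 rows other than Ccl7 and Ccl2, and the Cx3cr1, Ccr2 and Ccr1 rows, are bright mainly in the 2 macrophage columns. Ccl7 and Ccl2 also have 13.9 to 87.9 and 13.8 to 114 CPM in the ASC columns.

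The vascular and inflammatory CXC ligands are shown with the sequence around their start sites, because close neighbours in the genome had different class patterns. The windows run from 250 bases before to 50 bases after the RefSeq start (GRCm38.p6, 5′ to 3′ on the gene's strand), and 30 of the 40 members on chromosomes had such a window. Capitals mark 2 motifs searched on both strands, the NF-kB (kB) consensus and the interferon-stimulated response element, written as GAAA, NN and GAAA in a row. The kB consensus was held by 8.46% of 32851 windows and by 6 of the 30 members (Ackr2, Ccl9, Ccr1, Cxcl1, Cxcl10, Cxcl2), and the response element by 3.44% of windows and by 3 members (Ccl19, Cxcl10, Cxcl14). Cxcl1 (chr5:90890995-90891294, plus strand) and Cxcl2 (chr5:90903649-90903948, plus strand), neighbours in the genome that both act on Cxcr2, hold the kB letters 71 and 97 bases before the start. Cxcl10 (chr5:92348840-92349139, minus strand) holds both motifs, and its neighbour Cxcl9 (chr5:92328030-92328329, minus strand) neither, as is also the case for Cxcl12 (chr6:117168285-117168584, plus strand). A match is only a run of letters in this window.
Cxcl1: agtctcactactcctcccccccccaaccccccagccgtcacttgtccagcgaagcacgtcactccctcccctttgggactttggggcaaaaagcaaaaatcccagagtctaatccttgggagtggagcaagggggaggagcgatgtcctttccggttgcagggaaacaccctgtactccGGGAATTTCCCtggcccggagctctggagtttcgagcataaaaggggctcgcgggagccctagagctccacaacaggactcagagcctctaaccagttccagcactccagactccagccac
Cxcl2: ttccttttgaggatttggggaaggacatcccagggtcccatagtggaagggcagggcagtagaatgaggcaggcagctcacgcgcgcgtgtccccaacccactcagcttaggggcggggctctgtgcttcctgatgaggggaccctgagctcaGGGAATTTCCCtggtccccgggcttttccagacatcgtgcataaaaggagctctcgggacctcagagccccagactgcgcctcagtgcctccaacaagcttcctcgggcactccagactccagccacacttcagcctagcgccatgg
Cxcl10: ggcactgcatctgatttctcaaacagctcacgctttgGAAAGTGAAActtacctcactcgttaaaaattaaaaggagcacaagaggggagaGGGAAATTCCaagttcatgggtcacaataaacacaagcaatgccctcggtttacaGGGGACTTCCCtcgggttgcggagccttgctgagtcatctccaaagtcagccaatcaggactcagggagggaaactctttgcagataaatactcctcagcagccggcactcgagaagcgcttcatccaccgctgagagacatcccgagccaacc
Cxcl9: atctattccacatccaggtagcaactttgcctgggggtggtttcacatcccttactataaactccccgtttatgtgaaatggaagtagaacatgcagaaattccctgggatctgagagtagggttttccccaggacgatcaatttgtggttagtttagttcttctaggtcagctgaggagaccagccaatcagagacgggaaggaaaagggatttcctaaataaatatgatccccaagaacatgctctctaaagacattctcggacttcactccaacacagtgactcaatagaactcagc
Cxcl12: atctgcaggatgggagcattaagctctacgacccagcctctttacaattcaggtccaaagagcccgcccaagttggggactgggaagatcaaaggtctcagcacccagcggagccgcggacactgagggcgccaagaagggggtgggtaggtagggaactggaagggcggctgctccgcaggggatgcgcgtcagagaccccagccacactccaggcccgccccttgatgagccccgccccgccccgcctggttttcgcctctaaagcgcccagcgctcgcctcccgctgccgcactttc

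Cxcl12, the ligand of Cxcr4 that holds stem and progenitor cells in their niches, was read in all 4 classes and was highest in the endothelium. In EC-like cells it stood at 1372, 1868, 2614, 3176 and 594 CPM in mice 1, 2, 5, 6/7 and 8, a mean of 1925 ± 1015 (SD, n = 5). ASC-like cells had 74.2 CPM in the lowest mouse, a median of 431 and 743 in the highest (408 ± 240, n = 7). Mice 1 and 8 were low and mouse 8 lowest in both classes, so the classes overlapped across mice. Within a mouse, however, the EC-like level was 3.58 to 10.7 times the ASC-like level, higher in 5 of 5 mice. Mural-like cells had 575 and 1047 CPM in mice 1 and 2, and macrophage-like cells 37.6 and 88.2 CPM in mice 1 and 5.

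Cxcl9, an interferon-induced ligand of the T cell receptor Cxcr3, was the second endothelial ligand. EC-like cells had 93.5, 364, 143, 334 and 155 CPM in mice 1, 2, 5, 6/7 and 8 (218 ± 122, n = 5), and every ASC-like value was lower, between 0.0418 and 22.1 CPM. After each cell was thinned to 100000 gene reads, 66.1% of EC-like cells held a Cxcl9 read, with 45.7% to 81.7% by mouse. The exact 95% binomial interval of the pooled share (62.0 to 70.0) covers counting error only and not the spread between mice. The share was 15.8% in mural-like (7.32% in mouse 1, 76.9% in mouse 2), 1.96% in ASC-like and 5.11% in macrophage-like cells. The mural-like cells of mouse 2 (145 CPM) lay within the EC-like range and those of mouse 1 (6.72 CPM) below it. Its genomic neighbour Cxcl10, also a ligand of Cxcr3, did not follow it: the mean level was 2.28 CPM in EC-like, 14.5 in ASC-like and 19.8 in macrophage-like cells. Cxcl9 and Cxcl10 reads occurred together in 1.97% of EC-like cells.

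Cx3cl1, or fractalkine, a ligand that can be tethered to the membrane, was split between the vascular classes. It measured 6.62, 49.7, 46.7, 18.4 and 0.745 CPM in the EC-like cells of mice 1, 2, 5, 6/7 and 8. Mural-like cells had 28.5 and 46.9 CPM in mice 1 and 2. Without the cells rich in markers of another class, mostly VSMC-like cells remained, and the mural-like level was 0.468 CPM. Levels in ASC-like cells ran from 0.544 to 7.94 CPM. The EC-like values of mice 1 and 8, the male mice, fell within the range of ASC-like cells, although within a mouse the EC-like level was 1.21 to 12.3 times the ASC-like level, higher in 5 of 5 mice. The difference did not pass the test described below (log2 fold change 1.74, adjusted p = 0.123).

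ASC-like cells had the highest level of Ccl11 (eotaxin), which attracts eosinophils through Ccr3. The level was 124 CPM in the lowest of the 7 mice, 274 at the median and 712 in the highest. EC-like cells had 0.219 to 3.49 CPM, so that the ASC-like level was 174 to 823 times higher within a mouse. Per kilobase of annotated exon, the scale on which genes can be ranked, Ccl11 was the leading ligand of ASC-like cells (327 CPM per kb), ahead of Cxcl1 (100.3), Ccl7 (66.4), Ccl2 (55.9), Cxcl12 (49.95) and Cxcl16 (43.5).

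The neutrophil attractant Cxcl1 had 33.6 CPM in the lowest, 184 at the median and 328 in the highest ASC-like sum, against 0.219 to 8.63 CPM in EC-like cells. The lowest ASC-like value was that of mouse 1, whose ASC-like cells also had the lowest sum of 14 immediate early and stress genes (5907 CPM, against 8867 to 23390 in the other mice). The part of this in the Cxcl1 level was not tested. Cxcl16, a membrane-bound ligand of Cxcr6 and scavenger of oxidised lipid, ran from 18.9 to 271 CPM (median 115) in ASC-like cells, and Cxcl14, a chemokine made by many healthy epithelia and stromal cells, from 17.8 to 68.5 CPM (median 43.1). The monocyte attractants Ccl2 and Ccl7 had medians of 49.8 and 59.1 CPM in ASC-like cells, with ranges of 13.8 to 114 and 13.9 to 87.9.

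The macrophage-like cells of mice 1 and 5 carried the broadest set of ligands. Ccl6 and Ccl9, which act on Ccr1, had 416 and 896 CPM, and 350 and 646 CPM. The Ccr2 ligands followed, with Ccl7 at 184 and 313 CPM, Ccl2 at 143 and 195 CPM and Ccl12 at 7.76 and 83.7 CPM. Ccl8 had 131 and 299 CPM, Cxcl2 168 and 268 CPM, and Ccl24, a second eosinophil attractant, 213 and 112 CPM. Ccl3 and Ccl4, attractants of monocytes and T cells, had 77.5 and 72.9 CPM and 17.8 and 54.5 CPM. Mouse 5 was higher than mouse 1 for each of these but Ccl24 and Ccl3. Per kilobase, Ccl8 (420.5), Ccl6 (365), Ccl7 (310.4) and Ccl9 (164 CPM per kb) led. Cxcl10, the Cxcr3 ligand, stood at 6.82 and 32.8 CPM.

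The neighbouring genes of a chemokine cluster did not share 1 class pattern. On chromosome 11, Ccl2, Ccl7, Ccl11, Ccl12 and Ccl8 lie between positions 82035571 and 82116799 on the plus strand (GRCm38). In that order, Ccl2 and Ccl7 were read in ASC-like and macrophage-like cells, Ccl11 in ASC-like and some mural-like cells, and Ccl12 and Ccl8 chiefly in macrophage-like cells. Ccl11 had 0.0941 and 0.364 CPM in the macrophage-like cells of mice 1 and 5, although Ccl7 next to it exceeded 180 CPM in both. On chromosome 5, Cxcl1 and Cxcl2, whose windows are printed above, went separate ways: Cxcl1 averaged 188 CPM in ASC-like and 22.9 in macrophage-like cells, and Cxcl2 2.39 and 218 CPM.

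**Figure D2:**
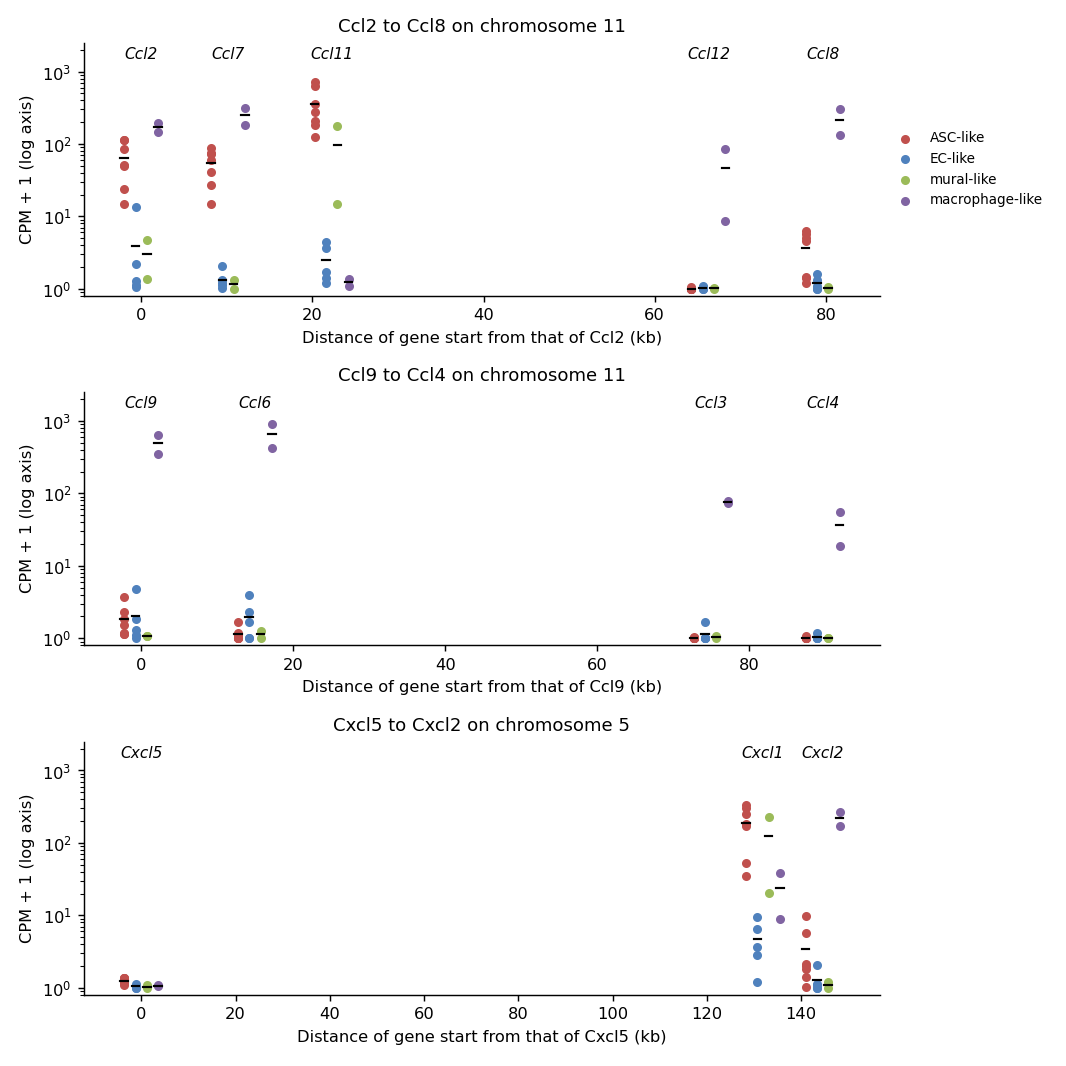
CPM + 1 (log axis) of the genes of 3 chemokine clusters against the distance of each gene's start from the first gene (kb), with 1 point per mouse, colours for the 4 classes and a bar at each class mean. Ccl11 has ASC-like points between 124 and 712 CPM and macrophage-like points below 1 CPM, while Ccl9, Ccl6, Ccl3, Ccl4 and Cxcl2 exceed 10 CPM only in the 2 macrophage-like points.

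Among the receptors, ASC-like cells had the atypical receptors and little else. Ackr3, a scavenger of Cxcl12, measured 212 CPM in the lowest, 510 at the median and 746 in the highest ASC-like sum, and was read in 89.4% of thinned ASC-like cells. EC-like cells had 39.2, 96.6, 18.5, 46.1 and 84.8 CPM in mice 1, 2, 5, 6/7 and 8, mural-like cells 38.3 and 114 CPM, and macrophage-like cells 0.768 and 0.560 CPM. Ackr2, a scavenger of inflammatory CC chemokines such as Ccl2 and Ccl11, ran from 28.2 to 81.2 CPM in ASC-like cells and was at most 0.406 CPM in the other 3 classes. Ackr4, a scavenger of Ccl19 and Ccl21, stood at 0.998 to 5.80 CPM in ASC-like cells. Ackr1, which in venules carries chemokines across the endothelium, was near zero in EC-like cells (at most 0.0877 CPM) and reached 1.17 to 6.86 CPM in ASC-like cells and 1.68 and 9.82 CPM in mural-like cells.

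The signalling receptors were those of macrophage-like cells. In mice 1 and 5, Cx3cr1, the receptor of Cx3cl1, had 46.3 and 179 CPM, and Ccr2, the receptor of Ccl2, Ccl7 and Ccl12, 17.2 and 148 CPM. Ccr1 had 52.1 and 83.5 CPM. Mouse 5 was the higher in all 3. None of them exceeded 3.09 CPM in any sum of the other classes. Cxcr3 averaged 9.66 CPM in macrophage-like cells and had no read in ASC-like cells.

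**Figure D3:**
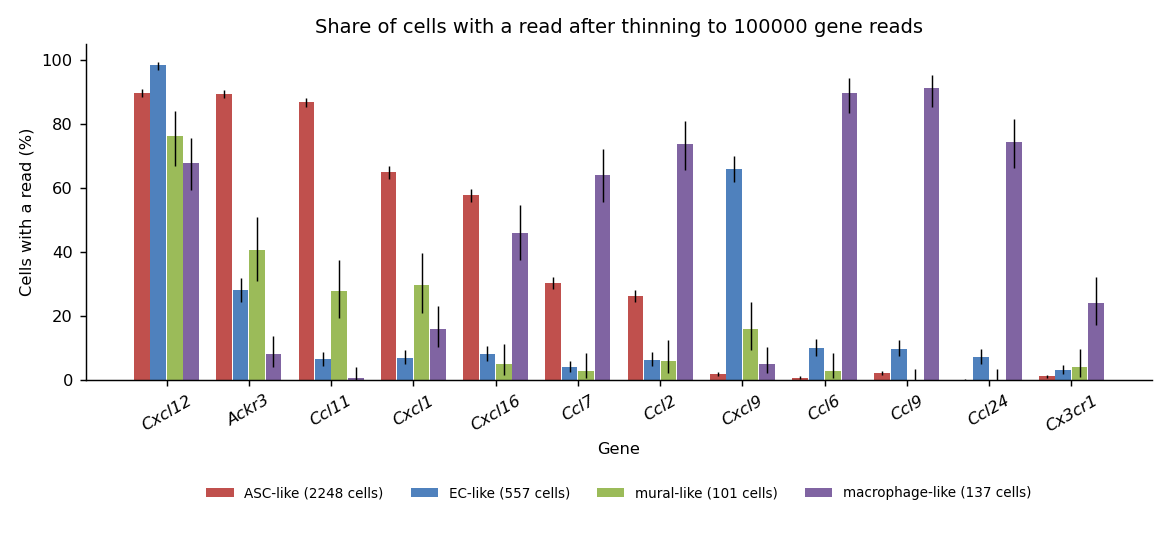
Bars show the percentage of cells with at least 1 read of each gene after every cell was thinned to 100000 gene reads, by class, with exact 95% binomial intervals that cover counting error only. Cxcl12 reaches 67.9% to 98.4% in all 4 classes, Ackr3 89.4% in ASC-like cells and 8.03% in macrophage-like cells, and Ccl24 74.4% in macrophage-like cells.

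Setting each ligand beside its measured receptors left 12 of 28 measured pairs with both sides above 10 CPM in some class. For Cxcl12, the receptor side among these 4 classes was Ackr3, with means of 519.5 CPM in ASC-like, 76.3 in mural-like and 57.0 in EC-like cells. Cxcr4 averaged 3.37 CPM or less in every class and was read in at most 3.77% of the thinned cells of a class. Cx3cl1 of EC-like and mural-like cells faced Cx3cr1 of macrophage-like cells (mean 112.6 CPM). The mural-like side fell to 0.468 CPM without the cells rich in markers of another class. Ccl2 and Ccl7 of ASC-like and macrophage-like cells faced Ccr2 of macrophage-like cells (82.7 CPM). Ccr1 and its ligands Ccl3, Ccl6 and Ccl9 lay within the macrophage-like class. Cxcr2, the receptor of Cxcl1 and Cxcl2, averaged 1.15 CPM or less in each class. Leukocytes removed by the CD45 gate are not part of these pairs. Ackr2 of ASC-like cells (53.0 CPM) faced Ccl2 and Ccl11 of the same cells. Ccr3 and Cxcr6, the signalling receptors of Ccl11 and Cxcl16, had no row in the count table. These are transcript levels, and proteins were not measured.

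The first comparison asked which of these genes separate the endothelium from the stem cells of the same mouse. In edgeR's quasi-likelihood test with the mouse as a block, called at an adjusted p below 0.05 and a fold change above 2.6, 16 of 45 members were called between EC-like and ASC-like cells. Of these, 4 were higher in EC-like cells, where 5.49% of all 22805 genes were called higher, and 12 were lower, where 9.89% were called lower. The members' median log2 fold change was -0.72 and that of all genes -0.25. Cxcl12 rose by 2.41 on the log2 scale (SE 0.238, adjusted p = 0.000131) and Cxcl9 by 7.27 (SE 1.5, adjusted p = 0.00840). Cxcr4 (1.1 against 0.00938 CPM) and Ccl24 (0.452 against 0.0202 CPM) were also called higher at low levels. The EC-like Ccl24 reads sat mostly in mouse 1 (1.94 CPM, at most 0.132 in the others), whose EC-like sum also had the highest level of the 7 macrophage markers (58.5 CPM, against 8.73 to 25.3), and the part of this in the difference was not tested.

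The 12 genes lower in EC-like cells were the ASC-like ligands Ccl11 (log2 fold change -8.34, SE 0.560, adjusted p = 1.94e-05), Cxcl1 (-5.60, SE 0.765, adjusted p = 0.000806), Cxcl14, Cxcl16, Ccl2, Ccl7, Cxcl13 and Ccl19, and all 4 atypical receptors. Ackr3 had a log2 fold change of -3.29 (SE 0.451, adjusted p = 0.000839) and Ackr2 one of -9.18 (SE 1.11, adjusted p = 0.000412). Ccl19, a lymphoid chemokine that acts on Ccr7, had no read in any EC-like sum and was at least 755-fold lower there, taking 3 reads over the group as the limit. Among the called members, the values of the classes overlapped across mice for Cxcl12, Cxcl16, Cxcl13 and Ccl24. EC-like sums also held 1051 to 3075 CPM of 10 adipocyte genes, against 5.16 to 41.9 CPM in ASC-like sums, and their part in these differences was not tested.

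Between macrophage-like and ASC-like cells 17 of 45 members were called, 11 higher (3.31% of all genes) and 6 lower (5.10%). The members higher in macrophage-like cells included Ccl24, Ccl3, Ccl12, Ccl6, Ccl9 and Cxcl2 and the receptors Ccr1, Cxcr4, Cx3cr1 and Ccr2. Ccl9 rose by 9.07 (SE 1.05, adjusted p = 0.000866) and Cx3cr1 by 8.2 (SE 0.947, adjusted p = 0.000844) on the log2 scale. The members lower were the 4 atypical receptors, Ccl11 and Cxcl12 (-2.52, SE 0.364, adjusted p = 0.00297). Ccl2 and Ccl7 were not called (log2 fold changes 2.63 and 1.68, adjusted p = 0.323 and 0.611), although both macrophage-like values lay above all 7 ASC-like values. Cxcr3, with no read in ASC-like cells, was at least 5190-fold higher in macrophage-like cells by the same limit of 3 reads, with an adjusted p of 0.0544. Without mouse 5 the count fell to 5, and without mouse 1 to 10.

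Against EC-like cells, macrophage-like cells had 16 called members, 13 higher (3.78% of all genes) and 3 lower (4.19%). Here Ccl7 (log2 fold change 9.77, SE 1.51, adjusted p = 0.00416), Ccl2 (8.59, SE 1.38, adjusted p = 0.00506) and Ccl8 (9.58, SE 1.59, adjusted p = 0.00600) were called higher, and Cxcl1, Cxcl2, Ccl3, Ccl6, Ccl9, Ccl12, Ccl24, Ccr2 and Cx3cr1 were also among the 13. Ackr3, Cxcl12 and Cx3cl1 were lower. The count was 4 without mouse 5 and 10 without mouse 1.

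The mural-like class rested on 82 cells of mouse 1 and 13 of mouse 2. Against ASC-like cells 5 members were called, Cxcl12 higher (2.21% of all genes) and Ccl7, Ackr2, Ackr3 and Ccl11 lower (1.73%). Against EC-like cells Cxcl1, Ccl11 and Ackr1 were higher (1.18%) and 0 members were lower (0.0833%). By the same edgeR test 9 members had an unadjusted p below 0.05 in the latter comparison, edgeR's likelihood ratio test called 2 lower and DESeq2 3 lower. These counts stand without the share of all genes, so they do not show whether the members moved more than other genes. EC markers in the mural-like sums measured 523 CPM in mouse 1 and 5342 CPM in mouse 2, against 2696 to 8241 CPM in EC-like sums, and 49 of the 60 pericyte-like cells were rich in markers of another class. The part of this in the mural-like levels was not tested. Leaving out the cells rich in markers of another class kept 11 pericyte-like and 39 VSMC-like cells, so the class then consisted mostly of VSMC-like cells, which had little Cxcl12 and no Ackr1 read. In that setting no member was called against ASC-like cells, the mean mural-like level of Cxcl12 was 76.0 CPM, and its log2 fold change turned to -1.01 (adjusted p = 0.310). Against ASC-like cells the count was 0 without mouse 1 or mouse 2, 3 without mouse 5, 1 without mouse 6/7 and 2 without mouse 8. Against EC-like cells it was 0 without mouse 1 and 1 without mouse 2, 6/7 or 8, and without the cells rich in other markers the log2 fold change of Ackr1 turned to -5.19 (adjusted p = 0.708).

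Within the mural-like class the levels followed the pericyte-like cells. Pooled over cells, and with no test since only mouse 1 had at least 10 VSMC-like cells, Cxcl12 had 1037 CPM in pericyte-like and 12.0 CPM in VSMC-like cells. Cx3cl1 (51.7 against 0.524 CPM) and Ccl11 (24.9 against 0.743 CPM) differed the same way within mouse 1. Cxcl1 did not: it had 19.6 CPM in the pericyte-like and 18.96 in the VSMC-like cells of mouse 1. Ackr3 was at 20.4 CPM in pericyte-like and 59.9 CPM in VSMC-like cells of that mouse, and at 114 CPM in the pericyte-like cells of mouse 2. The EC markers stood at 943 and 5342 CPM in the pericyte-like sums of mice 1 and 2 and at 15.9 CPM in the VSMC-like sum.

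The LEC-like cells, 22 in all and without a test, held the largest level of any member. Ccl21a, which guides dendritic cells into lymphatic vessels through Ccr7, reached 21100 CPM, and the rows of Ccl21 copies together 31350 CPM, with reads in 21 of the 22 cells (95.4%). In the same cells Ackr2 had 268 CPM, Cxcl12 160 CPM and Ackr3 155 CPM. Ackr2 was read in 63.6% of the thinned LEC-like cells (exact interval 40.7 to 82.8) against 0.718% of EC-like cells. The Ccl21 rows summed to 7.41 CPM over EC-like, 11.6 over macrophage-like and 1.29 over ASC-like cells. Most of this came from mouse 1, with 25 CPM in EC-like and 17.8 CPM in macrophage-like cells, against 0.0120 to 5.82 CPM in the EC-like cells of the other mice and 0.616 CPM in the macrophage-like cells of mouse 5.

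The second set of comparisons was made within the ASC-like cells. Cells were assigned to ASC1a-like, ASC1b-like or ASC2-like by the highest of 3 marker scores within each mouse, none of which held a chemokine gene. These subtypes are ranges of a score: 516 cells (23.0%) lay within 0.25 of a boundary. Scores were scaled within each mouse, so every mouse received cells of all 3 subtypes. Mouse 1 had 75 ASC1a-like, 80 ASC1b-like and 89 ASC2-like cells, and mouse 4 had 115, 125 and 123. In the paper's own clusters mouse 1 had no ASC1a cells and mouse 4 almost no ASC2 cells. A direction shared by all mice is therefore one along the score, not between subtypes present in each mouse. Between ASC2-like and ASC1a-like cells 34 members were tested and 6 were called, 4 higher (1.35% of all 17972 genes) and 2 lower (1.05%). The 4 higher in ASC2-like cells were the 4 atypical receptors, and the 2 lower were the ligands Cxcl14 and Cxcl12, each in the same direction in 7 of 7 mice. The members' median log2 fold change was -0.04 and that of all genes -0.01.

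Ackr2 had 0.898 CPM in the lowest, 13.1 at the median and 85.1 in the highest ASC1a-like sum, and 78.7, 130 and 163 CPM in ASC2-like sums (log2 fold change 3.39, SE 0.582, adjusted p = 0.00161). Only the ASC1a-like cells of mouse 4 overlapped the ASC2-like range. Over all ASC-like cells, Ackr2 was highest in mouse 4 (81.2 CPM, read in 54.6% of thinned cells), which had almost no ASC2 cells in the paper's clusters. Mouse 1, without ASC1a cells in those clusters, had 67.7 CPM and 38.1%. Between these mice Ackr2 therefore did not follow the paper's subtypes. Ackr3 rose from a median of 339 to 970 CPM (1.71, SE 0.224, adjusted p = 0.000149), Ackr4 from 0.553 to 5.70 CPM (3.35, SE 0.572, adjusted p = 0.00155) and Ackr1 from 0.680 to 9.21 CPM (3.3, SE 0.749, adjusted p = 0.0133). Cxcl14 was lower in every ASC2-like sum (1.08 to 14.9 CPM) than in any ASC1a-like sum (32.5 to 113 CPM), with a log2 fold change of -3.81 (SE 0.395, adjusted p = 1.35e-05). The paper names Cxcl14 as an ASC1a marker in these same cells, and it was left out of the score for that reason. Its direction was thus known beforehand and is no independent result. Cxcl12 had a median of 591 CPM in ASC1a-like and 175 CPM in ASC2-like cells (-1.67, SE 0.138, adjusted p = 1.53e-06), with overlap across mice. Ccl11 and Cxcl16 were lower too (-1.21 and -1.1, adjusted p = 0.000367 and 0.0125), but below the fold limit. Without the mouse block, Ackr2 had an adjusted p of 0.169.

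**Figure D4:**
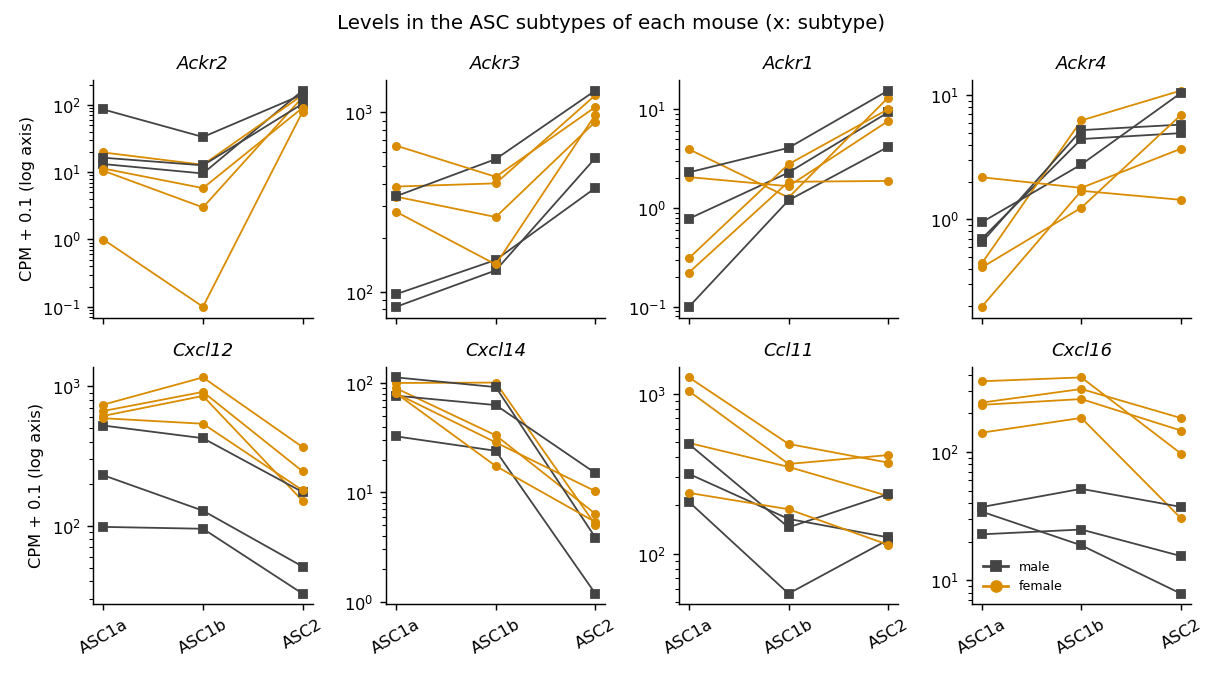
CPM + 0.1 (log axes with separate ranges) of 8 members in the ASC1a-like, ASC1b-like and ASC2-like cells of each of the 7 mice, with lines joining the subtypes of a mouse, squares for male and circles for female mice. From ASC1a to ASC2 the line ends higher for Ackr2, Ackr3 and Ackr1 and lower for Cxcl12 and Cxcl14 in each of the 7 mice.

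ASC1b-like cells did not differ from ASC1a-like cells in any member called by edgeR's quasi-likelihood test (0 of 34, against 0.206% of all genes called higher and 0.0556% lower). Here 4 members had an unadjusted p below 0.05, and edgeR's likelihood ratio test and DESeq2 each called 1. Without the share of all genes beside them, these counts do not show whether the members moved more than other genes. Ccl11 had a log2 fold change of -1.12 (SE 0.176, adjusted p = 0.00621), under the fold limit, and was lower in 7 of 7 mice. Ackr4 had the largest log2 fold change, 2.53 (SE 0.564), with 3.25 CPM in ASC1b-like against 0.689 CPM in ASC1a-like cells. It narrowly missed the limit in the quasi-likelihood test (adjusted p = 0.0528) and was higher in 6 of 7 mice. The mean of Ackr4 was thus above that of ASC1a-like cells in ASC1b-like cells too, a difference that was not called.

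Mouse 2 offered a sort on DPP4, a surface peptidase that is also a marker in the ASC2 score, with 1 plate for each gate and therefore no test. The labels and the column names differ on the PDGFRB gate of the DPP4-positive plate. On the DPP4-positive plate the 379 ASC-like cells had 95.1 CPM of Ackr2 and 735 CPM of Ackr3, and on the DPP4-negative plate 368 such cells had 3.20 and 271.5 CPM. Cxcl14 had 10.3 CPM on the DPP4-positive and 127 CPM on the DPP4-negative plate, Cxcl12 243 and 818 CPM, and Cxcl16 45.0 and 189 CPM. Ccl2 (84.7 and 83.8 CPM) and Ccl7 (73.3 and 72.5 CPM) were nearly level. The exact Poisson intervals of these values cover counting error only. They did not overlap for Ackr2 (93.97 to 96.2 against 3.00 to 3.42 CPM) or Cxcl14 (9.90 to 10.6 against 125 to 128 CPM). They also lay apart for the smaller difference of Cxcl10 (38.5 to 39.9 against 25.3 to 26.5 CPM), and overlapped for Ccl2 and Ccl7. Such intervals cannot tell an effect of the gate from a difference between plates. The ASC-like cells of both plates also entered the subtype sums of mouse 2, so this sort is not independent support for the subtype results.

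After thinning, 1800 of 2248 ASC-like cells (80.1%) held reads of both Cxcl12 and Ackr3. Ackr3 was read in 89.3% of the cells with Cxcl12 and in 90.5% of those without, so reads of 1 gene went with no larger share of the other. Within a mouse, the Spearman correlation of the 2 genes across ASC-like cells had a median of -0.388 over 7 mice (-0.426 to -0.0266), given as a description of cells that share plates and depth. Ccl2 and Ccl7 occurred together: 46.8% of ASC-like cells with Ccl2 also had Ccl7, against 24.3% of those without, and the shares were 74.3% and 36.1% in macrophage-like cells. Cxcl1 had a median correlation of 0.253 with the summed immediate early and stress genes.

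The third question was that of sex. In ASC-like cells, 20 members passed the filter of more than 600 reads in at least 2 sums, and 3 were called between male and female mice, 1 higher in males (1.57% of 11814 genes) and 2 lower (0.686%). Cxcl16 had 18.9, 42.9 and 20.7 CPM in males (mice 1, 4 and 8) and 115, 243, 271 and 208 CPM in females (mice 2, 3, 5 and 6/7), with no overlap (male minus female -2.38 on the log2 scale, SE 0.380, adjusted p = 0.0130). The order also held in ASC1a-like cells (22.7 to 37.1 against 141 to 355 CPM) and ASC1b-like cells (18.6 to 51.5 against 184 to 381 CPM), but in ASC2-like cells the 7.77 to 37.2 CPM of males overlapped the 30.3 to 184 CPM of females. Ccl8 had 0.189 to 0.451 CPM in males and 3.58 to 5.23 CPM in females (-2.96, SE 0.543, adjusted p = 0.0239), far below its 131 and 299 CPM in macrophage-like cells. The male sums of Ccl8 held 97, 96 and 26 reads, so it passed the filter of 600 reads only through female sums. Such a gene is tested only where that sex is high, which limits what this call shows. Ccl19 was higher in males (4.46 to 17.4 CPM) than in females (2.07 to 6.48 CPM), with overlap (2.22, SE 0.464, adjusted p = 0.0407). Ackr2 had a log2 fold change of 1.27 (adjusted p = 0.0440), under the fold limit. Cxcl12 (194 CPM in males, 569 in females, adjusted p = 0.147) and Cxcl9 (0.151 and 6.81 CPM, adjusted p = 0.0736) did not pass the test, although their values did not overlap between the sexes. Cxcl9 too passed the read filter through female sums alone, with at most 91 reads in a male sum.

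**Figure D5:**
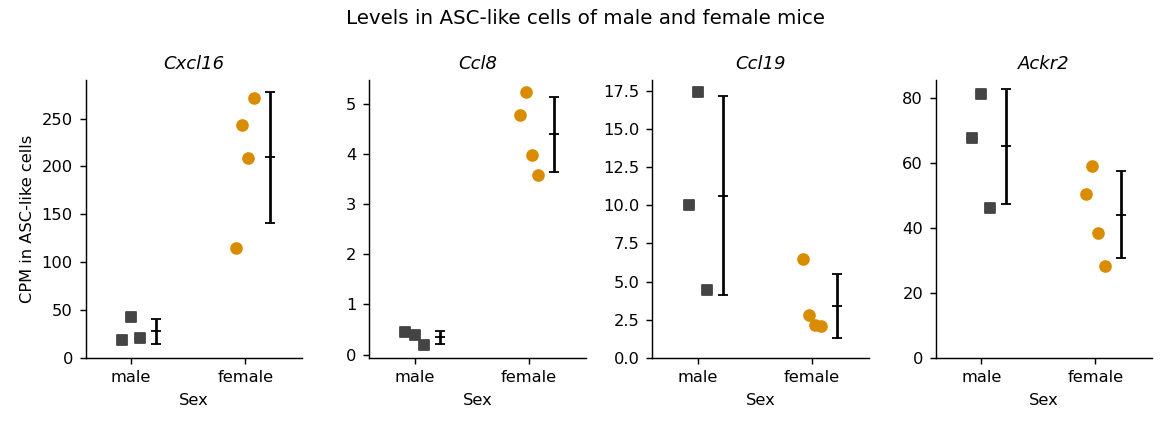
CPM of 4 members in the ASC-like cells of the 3 male (squares) and 4 female (circles) mice, with bars for the mean and SD beside the points and a separate linear axis for each gene. Cxcl16 and Ccl8 do not overlap between the sexes (at most 42.9 against at least 115 CPM for Cxcl16), while Ccl19 and Ackr2 do.

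The sex calls depended on single mice. Cxcl16 was not called without mouse 4 or without mouse 8, and Ccl8 not without mouse 2, 4, 5, 6/7 or 8. The 3 calls fell to 0 without mouse 4 or mouse 8 and to 1 without mouse 5 or mouse 6/7. Scaling by library totals alone, under which the median over all genes moved from 0.04 to -0.60 on the log2 scale, gave 3 calls that were all lower in males, with all genes at 87 higher and 222 lower instead of 185 and 81. The sorting gates also differed between the mice of each sex. In EC-like cells 5 members were tested and edgeR's quasi-likelihood test called 0 between 2 male and 3 female mice, where 0.0124% of all genes were called higher and 0.0371% lower, and DESeq2 and the likelihood ratio test also called 0. Cx3cl1 alone had an unadjusted p below 0.05. It had 6.62 and 0.745 CPM in males and 49.7, 46.7 and 18.4 CPM in females (log2 fold change -2.67, SE 1.05, adjusted p = 0.645).

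Other genes of the pathway were counted by lists. Of 20 chemokine receptor signalling genes, 7 were higher and 0 lower in macrophage-like than in ASC-like cells, led by Dock2 (55.1 against 0.0110 CPM), which links chemokine receptors to Rac, Pik3cg, Rac2 and Pik3r5. Over all genes 3.31% were higher and 5.10% lower in that comparison. The list had a median log2 fold change of 1.97 and all genes -0.23. Between EC-like and ASC-like cells 1 of the 20 was higher (Elmo1, the partner of Dock2, 80.4 against 8.26 CPM) and 1 lower (Ptk2b), that is, no larger a share than the 5.49% and 9.89% of all genes. Of 9 other chemokine system genes, 2 were higher and 3 lower in EC-like than in ASC-like cells, beside the same 5.49% and 9.89%. Rarres2, which encodes the attractant chemerin, fell from 405 CPM in ASC-like to 8.61 CPM in EC-like cells, and Gpr182, an endothelial scavenger of chemokines, rose from 6.33 to 132 CPM. Pf4, a platelet and macrophage chemokine outside the naming rule, had 626 CPM in macrophage-like and 0.173 CPM in ASC-like cells. Of 22 NF-kB and cytokine input genes, 3 were higher and 3 lower in EC-like cells (5.49% and 9.89% of all genes), with Il6 (34.0 against 0.0299 CPM) and the interleukin 1 receptor Il1r1 (49.8 against 0.678 CPM) higher in ASC-like cells, and 3 were higher and 2 lower in macrophage-like than in ASC-like cells (3.31% and 5.10% of all genes). Tnf averaged 50.4 CPM in macrophage-like, 5.2 CPM in EC-like and less in ASC-like cells. Of 14 immediate early and stress genes, Fos and Socs3 were lower in EC-like than in ASC-like cells, and none was called between macrophage-like and ASC-like cells.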

How the data were processed

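Gene by cell counts were used as deposited. The authors made them from Smart-seq2 reads with bcl2fastq, STAR (mm10 with ERCC spike-ins), Salmon and tximport. Versions, the strand setting and how Salmon's estimates became whole counts are not given in the sources used here, so reads of overlapping or near-identical genes cannot be told apart. The 72 ERCC rows (1.98% of reads) were left out. Symbols and exon lengths came from GENCODE vM21 (23461 of 23507 rows matched).

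Cells were clustered in Seurat 5.3.0 (R 4.3.3, 3000 variable genes less 28 chemokine members, 14 principal components, resolution 1.1) and the 18 clusters were named from marker lists. No doublet caller was run. Instead, 145 cells rich in markers of another class were left out in an alternative. A cluster with EC markers stayed unnamed when at least 2 of its 10 leading genes were adipocyte genes, a limit lowered from 3 after the clusters were seen. Clusters with a median mitochondrial share far above that of all cells also stayed unnamed. By this rule 52 female cells with ASC markers were left out of the ASC-like sums and of the sex comparison. Summing per mouse and class (at least 10 cells) gave sums that held, in units of 1000000 gene reads, 68.1 to 594 for ASC-like, 14.8 to 167 for EC-like, 16.4 to 50.5 for mural-like and 35.7 to 63.8 for macrophage-like cells.

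Class and subtype comparisons used edgeR 4.0.16 (quasi-likelihood, TMM factors, filterByExpr with a count of 10, Benjamini-Hochberg over all genes) with the mouse as a block, since sums of 1 mouse id came from the same animal (or, for 6/7, the same 2 animals), and the sexes were compared without it among genes with over 600 reads in at least 2 sums. Calls needed an adjusted p under 0.05 together with more than a 2.6-fold difference, as in the study's own test. The p-values cover the spread between mice. Fewer cells transcribing a gene and less RNA per cell cannot be told apart in such sums. For shares of cells, each cell was thinned to 100000 gene reads. Floors of 3 counts and the 95% exact intervals cover counting error only. On simulated data the tests recovered most large changes between subtypes and between the sexes in ASC-like cells, fewer between EC-like and ASC-like cells and between the sexes in EC-like cells, and few in the comparisons with only 2 mural-like or macrophage-like sums. Alternatives were RLE factors or library totals, other filters, edgeR's likelihood ratio test (the study's), DESeq2 1.42.0, other cell classes, reads outside ribosomal RNA and mitochondrial genes as the total of a level, no block and leaving out each mouse. Members and lists were chosen with earlier results of these data known. The values of 1 member are not reported here. Single values are given for the other members that averaged 10 CPM in a class or were called between subtypes or sexes, and for up to 4 genes of each other list, those with the largest changes.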

Additional observations from a re-analysis of the deposited data

Results flagged for a closer look

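Of 54 member levels examined within groups of 4 to 7 mice, 3 (5.56%) had 1 mouse far from the others by Dixon's criterion, where chance gives about 1 in 20. Ackr2 stood at 85.1 CPM in the ASC1a-like cells of mouse 4, against 0.898 to 19.5 CPM in the other 6 mice. In ASC1b-like cells Ackr2 was again highest in mouse 4, at 33.16 CPM, against 0 to 12.8 CPM in the others. Cxcl10 was 54.84 CPM in the ASC2-like cells of mouse 2, against 4.31 to 15.5 CPM in the other mice.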

How the results depend on the processing

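Of the 16 members called between EC-like and ASC-like cells, 10 stayed called under all alternatives that tested them, as did 4 of the 6 of ASC2-like against ASC1a-like cells (Ackr3, Ackr4, Cxcl12, Cxcl14), 5 of 17 of macrophage-like against ASC-like, 2 of 16 of macrophage-like against EC-like, and none of the 3 sex calls or of the 5 and 3 mural-like calls. The cause was not tested where calls were lost, except that leaving out mouse 1 or 2 (mural-like) or mouse 1 or 5 (macrophage-like) leaves 1 sum, taken to vary as the other sums do. Ackr1 in ASC2-like cells was lost without mouse 1.

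Counts of members called in the alternatives, or with an unadjusted p below 0.05, stand here and above mostly without the share of all genes. They therefore do not show whether the members moved more than other genes did. Between mural-like and ASC-like cells the 5 called members became 14 by edgeR's likelihood ratio test, 15 by DESeq2 and 8 with over 600 reads in 2 sums. The count was 0 without cells rich in markers of another class, 0 with classes from each cell's markers, 0 with at least 20 cells a sum and 0 in a fit of the 2 classes alone. Between mural-like and EC-like cells the 3 became 8 by the likelihood ratio test, 9 by DESeq2, 0 with marker classes, 1 with at least 20 cells and 0 with 2 classes alone. Without cells rich in other markers, when mostly VSMC-like cells remain, the log2 fold change of Cxcl12 in mural-like against ASC-like cells turned to -1.01 and that of Ackr1 in mural-like against EC-like cells to -5.19. DESeq2 called 10 members between ASC2-like and ASC1a-like cells, and DESeq2 and the likelihood ratio test each called 1 between ASC1b-like and ASC1a-like cells.

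Without the replicate block, that is, without pairing sums of the same mouse, mural-like against EC-like gave 5 calls, mural-like against ASC-like 7, EC-like against ASC-like 24, macrophage-like against ASC-like 23 and against EC-like 23, ASC2-like against ASC1a-like 5 (Ackr2 lost, adjusted p = 0.169) and ASC1b-like against ASC1a-like 0.

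Leaving out 1 mouse at a time gave 13 to 17 calls for EC-like against ASC-like, 0 to 5 for mural-like against ASC-like, 5 to 17 for macrophage-like against ASC-like, 0 to 3 for mural-like against EC-like, 4 to 16 for macrophage-like against EC-like, 5 to 7 for ASC2-like and 0 to 1 for ASC1b-like against ASC1a-like, 0 to 4 for the sexes in ASC-like cells (0 without mouse 4 or 8) and 0 to 1 in EC-like cells (1 without mouse 1). Library totals alone moved the all-gene median for EC-like against ASC-like cells from -0.25 to -0.04, and in the sex comparison took Ccl19 to an adjusted p of 0.103. In EC-like cells the all-gene split between the sexes went from 1 higher and 3 lower to 0 and 3. A pair of alternatives was chosen after seeing the data, keeping the adipocyte-gene cluster as EC-like and pericyte-like cells alone as mural-like, and each took 1 call of a named gene away. Taking reads outside ribosomal RNA and mitochondrial genes as the total raised the 39 class levels of at least 10 CPM to 1.48 to 1.83 times their value, a shift larger than 1 SD between mice for 22 of them.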

Other observations

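The 196 unnamed cells, which make up no comparison, came from unlike clusters. In 125 cells EC markers led beside adipocyte genes, and 19 had epithelial markers. Another 52, all female, had ASC markers and a high mitochondrial share (median 7.2%). Pooled over all of them, the levels were 749 CPM of Ccl11, 675 of Cxcl12, 218 of Ccl7, 143 of Ackr3, 91.0 of Ccl2 and 76.1 of Cxcl13. Cxcl13 was among the 10 leading genes of the 52 cells with ASC markers. In the whole ASC-like class Cxcl13, a B cell attractant, ran from 0 to 18.2 CPM over the 7 mice.

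Summed over all members, ligand reads came to 399 to 1988 CPM in ASC-like, 772 to 3559 in EC-like, 656 to 1705 in mural-like and 1848 to 3194 in macrophage-like sums. Receptor reads came to 265 to 812 CPM in ASC-like, 22.4 to 101 in EC-like, 45.7 to 138 in mural-like and 170 to 522 in macrophage-like sums.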
